A study of Mus musculus with 76 samples.

Results

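The 10 genes described here take fatty acids into the adipocyte and build triglyceride from them, and were followed by genotype and tissue in mice that carry a base change in Fnip2. They are Lpl, Gpihbp1, Cd36, Fabp4, Slc27a1, Acsl1, Gpam, Agpat2, Dgat1 and Dgat2, chosen by name and found as 10 of the 18964 entries of the white adipose tissue (WAT) table and 10 of the 16775 entries of the liver table. Female mice of the 2 homozygous genotypes, Fnip2C/C and Fnip2T/T (C/C and T/T from here on), were fed ad libitum, and visceral WAT and liver were profiled with QuantSeq, which reads the 3′ end of polyadenylated transcripts. The C/C mice descend from C57BL/6 embryos edited with Cas9 to carry the T-to-C change and 1 more base change beside it at the guide's PAM, so that the effects of these changes cannot be told apart. T/T mice carry the T allele of the wild type and served as controls. The age of these mice was not given in the sources used here. There were 4 C/C and 5 T/T WAT libraries and 5 C/C and 5 T/T livers, 1 per mouse, and 6 of the mice gave both tissues.

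Adipocytes are filled from the blood by lipoprotein lipase (LPL), which is carried to the capillary lumen by GPIHBP1 and frees fatty acids from triglyceride-rich lipoproteins. CD36 and the transport protein FATP1, encoded by Slc27a1, help fatty acids into the cell, where FABP4 binds them and long-chain acyl-CoA synthetases such as ACSL1 activate them. The acyl groups are then added to glycerol 3-phosphate by GPAM and AGPAT2, and DGAT1 or DGAT2 adds the last one to give triglyceride. Fnip2 encodes a partner of folliculin in nutrient signaling to mTORC1.

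Depth, as reads recovered from the deposited values, ran from 4180209 to 6277644 in the WAT libraries and from 5583041 to 7523200 in the livers. Levels are given as normalized counts, which are read counts divided by a size factor per library and are comparable within a tissue only. All 9 adipocyte markers searched for were measured in WAT, with a summed normalized count of 70209.8 to 225027 in C/C and 101753 to 179140 in T/T, and all 8 hepatocyte markers in liver, with sums of 579687 to 737095 in C/C and 664664 to 783869 in T/T. The WAT library of C/C mouse 593 stood apart. The 9 markers of ovary found in WAT summed to 21165 there, against 121 to 142 in the other C/C libraries and 51.4 to 111 in T/T. This library also had the lowest C/C value in 7 of the 10 genes followed here and the lowest of all 9 WAT libraries in 5 of them. How often this library was lowest over all genes was not counted. Results in WAT are therefore given with and without it.

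In WAT, Lpl and Fabp4 were lower in C/C mice, by 2.10-fold and 2.14-fold, and the other 8 genes did not pass the test. The 10 genes did not move in one direction: fitted differences were below 0 for 4 of them and above 0 for 6, with a median log2 fold change of 0.10 beside 0.02 over all 12798 genes tested. All 10 passed the minimum mean of 10 normalized counts in both tissues. With an adjusted p under 0.05 in limma, 2 of 10 were called lower, where 17.0% of all genes tested were, and 0 of 10 higher, where 15.1% were. In either direction 32.1% of all genes tested were called, so that the share among these 10 was not above the background. At an unadjusted p under 0.05, limma counted 3 of the 10 lower and 1 higher, where 43.9% of all genes tested passed in either direction. By adjusted p, edgeR called 2 lower and 0 higher, where it called 32.4% of all genes, and DESeq2 called 3 lower and 1 higher, where it called 36.9%. The libraries of the 2 genotypes overlapped for every one of the 10 genes, whereas they did not for 26.1% of all genes tested. In bulk tissue, fewer cells of a type and less RNA per cell cannot be told apart.

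Lpl, on chromosome 8, encodes the lipase itself. Its normalized counts in C/C WAT were 17818 in mouse 590, 6183 in mouse 593, 20137 in mouse 599 and 10989 in mouse 638. In T/T WAT they were 25749 in mouse 607, 26808 in mouse 608, 39916 in mouse 609, 25076 in mouse 657 and 18189 in mouse 658. All T/T libraries but that of mouse 658 were above all C/C libraries, and the only overlap was between mouse 658 and mouse 599. Lpl differed by a log2 fold change of -1.07 (SE 0.35, adjusted p = 0.0332 in limma), with 13782 ± 6383 (SD, n = 4) in C/C and 27148 ± 7900 (SD, n = 5) in T/T and an exact permutation p of 0.0238. Without mouse 593 the difference was -0.73 (adjusted p = 0.0823) and was no longer called.

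Gpihbp1, on chromosome 15, is made by capillary endothelial cells and holds LPL at the vessel wall. Its normalized counts in C/C WAT were 1175 in mouse 590, 647 in mouse 593, 971 in mouse 599 and 1637 in mouse 638. In T/T WAT they were 604 in mouse 607, 866 in mouse 608, 1260.3 in mouse 609, 669 in mouse 657 and 652 in mouse 658. The genotypes overlapped widely, and mouse 638 alone was above all T/T libraries. Gpihbp1 had a log2 fold change of 0.43, with a 95% interval of -0.18 to 1.03 (adjusted p = 0.260), so that a fall like that of Lpl lay outside the interval for this gene. The exact permutation p was 0.230.

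Cd36, on chromosome 5, encodes a membrane receptor for long-chain fatty acids. Its C/C values in WAT were 7391 (mouse 590), 3098 (mouse 593), 5081 (mouse 599) and 7199 (mouse 638), and its T/T values were 4447 (mouse 607), 6357 (mouse 608), 6616 (mouse 609), 5884 (mouse 657) and 3469 (mouse 658). Both genotypes spanned nearly the same range. Its log2 fold change was 0.05, with a 95% interval of -0.59 to 0.68 (adjusted p = 0.916), and its sign turned when the libraries were scaled to the same total (-0.029) or quantile-normalized (-0.095).

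Slc27a1, on chromosome 8, encodes FATP1, an insulin-responsive transport protein with acyl-CoA synthetase activity. Its C/C values were 2302 (mouse 590), 971 (mouse 593), 2150.5 (mouse 599) and 2439.8 (mouse 638). T/T mice had 1359 (mouse 607), 821 (mouse 608), 1225 (mouse 609), 1137 (mouse 657) and 1681 (mouse 658). The 3 C/C libraries other than that of mouse 593 were above every T/T library. Over all 9 libraries the log2 fold change was 0.61 (SE 0.29, adjusted p = 0.119, exact permutation p = 0.103). Without mouse 593 it was 0.92 (SE 0.23, adjusted p = 0.0117), and the gene was called higher.

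Fabp4, on chromosome 3, encodes the abundant fatty acid binding protein of the adipocyte. Its C/C values were 12363 (mouse 590), 4269 (mouse 593), 8559 (mouse 599) and 13104 (mouse 638). In T/T mice they were 24182 (mouse 607), 12321.5 (mouse 608), 15699 (mouse 609), 19113 (mouse 657) and 25808 (mouse 658). Mouse 608 was the only T/T mouse within the C/C range. Fabp4 thus had a log2 fold change of -1.09 (SE 0.35, adjusted p = 0.0289 in limma), with 9574 ± 4058 (SD, n = 4) in C/C and 19425 ± 5653 (SD, n = 5) in T/T and an exact permutation p of 0.0317. Without mouse 593 it was -0.75 (adjusted p = 0.0691).

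Acsl1, on chromosome 8, activates long-chain fatty acids to their CoA esters. Its C/C values were 8547 (mouse 590), 3265 (mouse 593), 8334 (mouse 599) and 12472 (mouse 638), and T/T mice had 5505 (mouse 607), 4703 (mouse 608), 6336 (mouse 609), 3856 (mouse 657) and 6343 (mouse 658). As for Slc27a1, mouse 593 had the lowest C/C value and the 3 other C/C mice were above all 5 T/T mice. Acsl1 had a log2 fold change of 0.48 (SE 0.34, adjusted p = 0.290, exact permutation p = 0.246) with all libraries and 0.87 (SE 0.25, adjusted p = 0.0203) without mouse 593, where the gene was called higher. Without mouse 638, the highest of all, it was 0.23 (adjusted p = 0.646).

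**Figure D1:**
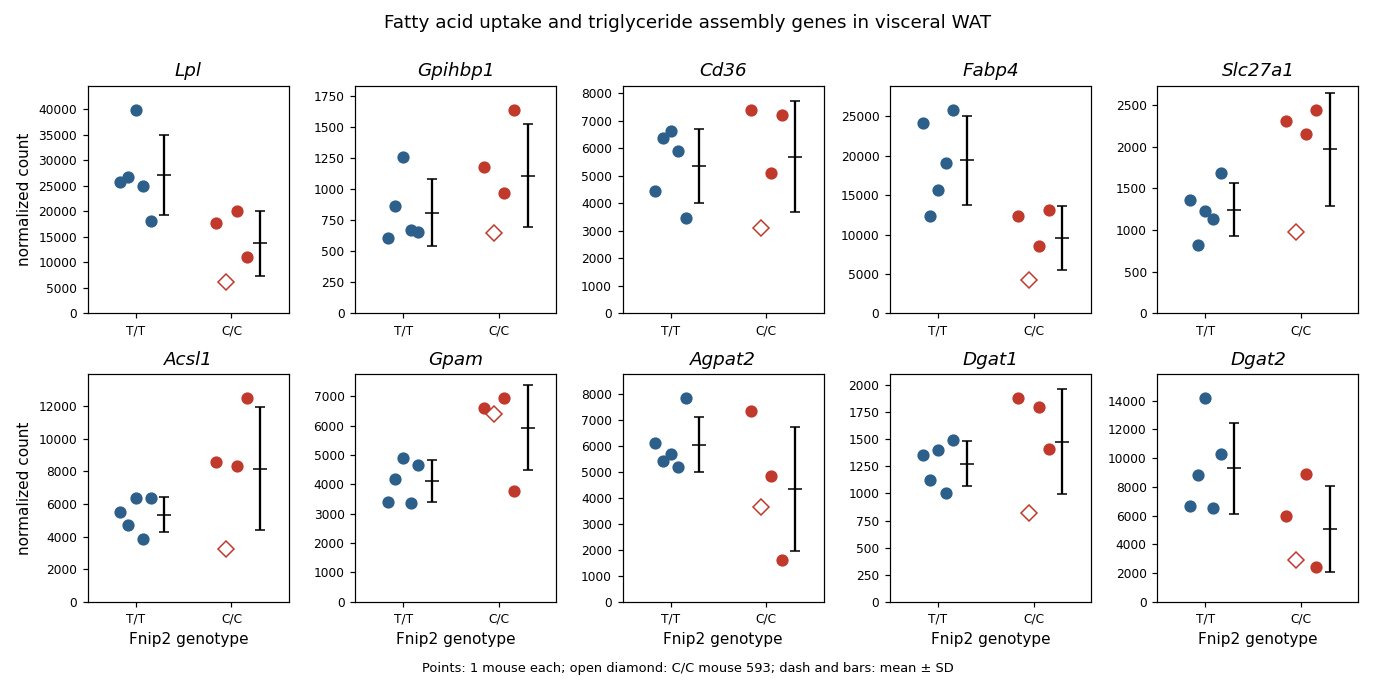
Normalized count of each of the 10 genes (y axis, from 0, a scale of its own in each panel) in visceral WAT by Fnip2 genotype (x axis). Each point is 1 mouse, the open diamond is C/C mouse 593, and the dash with bars is the mean ± SD of 4 C/C or 5 T/T libraries. Lpl and Fabp4 sit lower in C/C, and in Slc27a1 and Acsl1 the 3 filled C/C points sit above all T/T points.

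Gpam, on chromosome 19, encodes the mitochondrial acyltransferase that starts glycerolipid synthesis from glycerol 3-phosphate. Its C/C values were 6605 (mouse 590), 6408 (mouse 593), 6934 (mouse 599) and 3787 (mouse 638). In T/T mice they were 3386 (mouse 607), 4195 (mouse 608), 4916 (mouse 609), 3376.5 (mouse 657) and 4665 (mouse 658). Here mouse 638, not mouse 593, fell among the T/T mice, and the 3 other C/C mice were above them all. Over all 9 libraries, Gpam had a log2 fold change of 0.51 (SE 0.24, adjusted p = 0.113, exact permutation p = 0.0635). DESeq2 called the gene higher (adjusted p = 0.0405), as did limma with library weights (0.70, adjusted p = 0.0198) and without mouse 638 (0.71, adjusted p = 0.0337).

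Agpat2, on chromosome 2, adds the second acyl chain, and its loss causes congenital lipodystrophy. Its C/C values were 7326 (mouse 590), 3653 (mouse 593), 4823 (mouse 599) and 1608 (mouse 638), and T/T mice had 6105 (mouse 607), 5396 (mouse 608), 5692 (mouse 609), 5188 (mouse 657) and 7820.4 (mouse 658). The C/C mice spread more widely than the T/T mice, with 3 of them below every T/T mouse and mouse 590 near the top. The log2 fold change was -0.65 (SE 0.35, adjusted p = 0.170, exact permutation p = 0.151), and it moved with single C/C mice, to -0.97 without mouse 590 (adjusted p = 0.0379) and -0.24 without mouse 638 (adjusted p = 0.530). In the GENCODE vM21 annotation the whole spans of 3 members, introns included, overlap genes on the opposite strand. Whether the stretches that hold the counted reads overlap was not examined. Without the strand setting of counting, any reads that were shared cannot be told apart. Acsl1 shares 2200 bases of its span with Gm45244, Gpam 18314 bases with AC110206.1, and Agpat2 11361 bases with Gm20532 and 64 bases with Egfl7. Of these, Egfl7 alone was an entry of the deposited tables. Egfl7 stood at 863 ± 95.2 (SD, n = 4) in C/C WAT and 716 ± 222 (SD, n = 5) in T/T WAT.

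Dgat1 and Dgat2 encode unrelated enzymes for the same last step. Dgat1, on chromosome 15, had C/C values of 1877 (mouse 590), 819 (mouse 593), 1800.4 (mouse 599) and 1409 (mouse 638) and T/T values of 1353 (mouse 607), 1125 (mouse 608), 1402 (mouse 609), 1001 (mouse 657) and 1498 (mouse 658). Its log2 fold change was 0.16, with a 95% interval of -0.38 to 0.69 (adjusted p = 0.657), and it was 0.41 without mouse 593 and 0.016 without mouse 590. Dgat2, on chromosome 7, had C/C values of 5991 (mouse 590), 2891 (mouse 593), 8863 (mouse 599) and 2442 (mouse 638). Its T/T values were 6645 (mouse 607), 8819 (mouse 608), 14158 (mouse 609), 6515 (mouse 657) and 10271 (mouse 658). Of the C/C mice, only mouse 599 reached the T/T range. The log2 fold change of Dgat2 was -1.01 (SE 0.37), and its adjusted p of 0.0533 in limma was just past the threshold (exact permutation p = 0.0556). Under other settings the call went both ways. Dgat2 was called lower by DESeq2 (adjusted p = 0.0472) and by limma with a minimum mean of 50 (0.0495), scaling to the same total (0.0288), quantile normalization (0.0255) or a term for mouse numbers (0.0367), and also without mouse 590 (0.0471) or 599 (0.0173). It was not called by edgeR (adjusted p = 0.0900), with pseudocounts of 0.5 or 10, without a filter, or without any of the 7 other mice, and library weights gave -0.47 (adjusted p = 0.291).

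When mouse 593 was left out, the calls among the 10 genes changed. Lpl and Fabp4 were no longer called, and Slc27a1 and Acsl1 were called higher, which made 0 of 10 lower and 2 of 10 higher, where 15.8% of all genes tested were called lower and 13.8% higher. The libraries of Slc27a1 and Acsl1 then did not overlap between genotypes, 2 of 10 genes beside 31.7% of all genes tested. The fitted differences kept their signs in all 10 genes. The 6 genes called neither with nor without it were then at 0.66 (Gpihbp1, adjusted p = 0.0761), 0.31 (Cd36, 0.387), 0.46 (Gpam, 0.186), -0.64 (Agpat2, 0.236), 0.41 (Dgat1, 0.138) and -0.81 (Dgat2, 0.131). Lpl was also no longer called without mouse 638, 607, 608, 609 or 657, where its difference was still -1.09 to -0.92, and its adjusted p was 0.0233 to 0.0823 over all mice left out in turn. Fabp4 was also no longer called without mouse 599, 607, 657 or 658, where its difference was -1.09 to -0.98, and its adjusted p was 0.0222 to 0.0691 over all mice.

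**Figure D2:**
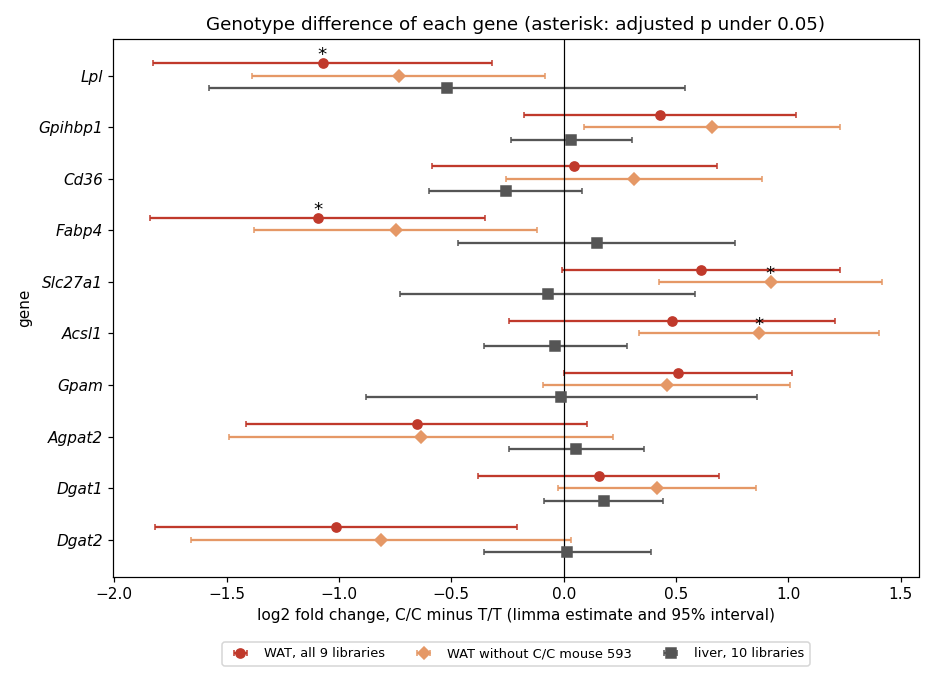
Log2 fold change of each gene, C/C minus T/T (x axis), with its 95% interval from limma, for WAT with all 9 libraries, WAT without C/C mouse 593 and liver with 10 libraries. An asterisk marks an adjusted p under 0.05. Lpl (-1.07) and Fabp4 (-1.09) carry it in WAT with all libraries, Slc27a1 (0.92) and Acsl1 (0.87) without mouse 593, and no gene in liver.

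The genes were also set against each other within each library, a description that does not depend on the size factor, was chosen after the values were seen and was given no test. Divided by Lpl of the same library, 6 of the other 9 genes (Gpihbp1, Cd36, Slc27a1, Acsl1, Gpam and Dgat1) were higher in every C/C library than in every T/T library, mouse 593 included. Among all genes tested, 31.7% were so, and the 6 ratios share the values of Lpl. The ratio of Gpihbp1 to Lpl was 0.0659 (mouse 590), 0.105 (mouse 593), 0.0482 (mouse 599) and 0.149 (mouse 638) in C/C. In T/T it lay between 0.0235 and 0.0358. Thus the mRNA of the anchor was higher relative to that of the lipase in every C/C mouse. Lpl itself was called lower in C/C with all libraries, and Gpihbp1 was not called. The ratio alone therefore does not show a rise of Gpihbp1. The ratio of Acsl1 to Lpl was 0.414 to 1.13 in C/C and 0.154 to 0.349 in T/T. Fabp4, Agpat2 and Dgat2, by contrast, overlapped between genotypes in their ratio to Lpl, with 0.425 to 1.19 in C/C and 0.393 to 1.42 in T/T for Fabp4. The ratio of Dgat1 to Dgat2 was 0.344 ± 0.162 (SD, n = 4) in C/C and 0.146 ± 0.0385 (SD, n = 5) in T/T, and overlapped by a narrow margin, at 0.203 in mouse 599 and 0.204 in mouse 607.

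**Figure D3:**
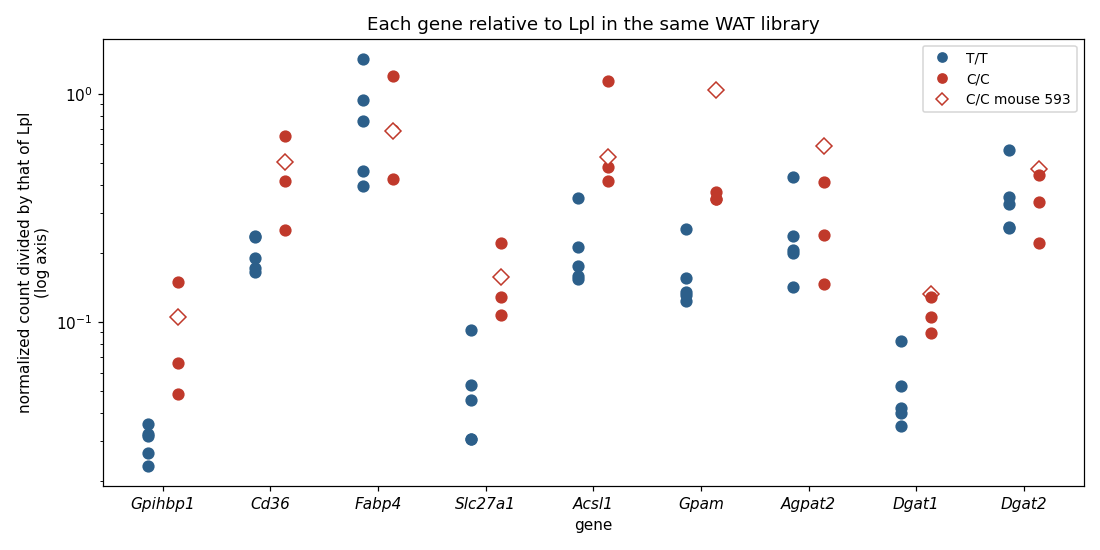
Normalized count of each gene divided by that of Lpl in the same WAT library (y axis, log scale) for the 9 other genes (x axis). Each point is 1 mouse and the open diamond is C/C mouse 593. Gpihbp1, Cd36, Slc27a1, Acsl1, Gpam and Dgat1 do not overlap between genotypes, while Fabp4, Agpat2 and Dgat2 do.

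Set against the mean log2 level of all 10 genes in the library, Slc27a1 and Dgat1 were higher in every C/C library, beside 15.2% of all genes tested that did not overlap by this measure. Slc27a1 stood at -1.12 ± 0.28 (SD, n = 4) in C/C and -1.89 ± 0.34 (SD, n = 5) in T/T on this log2 scale, and Dgat1 at -1.52 ± 0.065 and -1.84 ± 0.15. Together the 10 genes took 0.743 to 1.41% of the reads in C/C WAT and 1.55 to 2.00% in T/T WAT, and 1.17 to 1.41% in C/C without mouse 593. This share weighs each gene by its level. Lpl and Fabp4, both called lower, had the highest means of the 10 genes, at 27148 and 19425 normalized counts in T/T. The next highest T/T mean was 9282, for Dgat2. Since 6 of the 10 fitted differences were above 0, the share does not show a fall of the set as a whole. No such share for other sets of genes is given here.

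Most of the other genes of the pathway did not pass the test in WAT. Of 56 genes in 6 lists, 44 were tested, with 8 called lower, beside 17.0% of all genes, and 2 higher, beside 15.1%, and a median log2 fold change of -0.28, so that the share called was below the 32.1% of all genes. Among genes that handle lipoprotein lipase, Angptl4, which inactivates LPL, fell by 1.25 on the log2 scale (SE 0.39, adjusted p = 0.0282), from 1004 ± 353 (SD, n = 5) in T/T to 450.1 ± 231 (SD, n = 4) in C/C, and 7 others did not pass. Of the other transport and binding proteins, Slc27a4, the transport protein FATP4, rose by 0.70 (adjusted p = 0.0194) and 4 did not pass. Among acyl-CoA synthetases and binding proteins, Acsl5 fell by 1.16 (adjusted p = 0.00449). In glycerol 3-phosphate supply, the glycerol channel gene Aqp7 fell by 1.80 (adjusted p = 0.00664), from 299 ± 97.4 (SD, n = 5) to 94.5 ± 45.5 (SD, n = 4).

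The list of acyltransferases, lipins and droplet genes held 4 genes that fell and 1 that rose among 13 tested. Gpat4, the acyltransferase of the endoplasmic reticulum that catalyzes the same reaction as GPAM, fell by 0.64 (adjusted p = 0.0423), while Gpam itself was at 0.51. Agpat1 fell by 0.73 (adjusted p = 0.0252). Mogat1 and Mogat2, which encode monoacylglycerol acyltransferases, fell by 1.84 (adjusted p = 0.0228) and 1.36 (adjusted p = 0.0481) at low levels, with means of 6.50 and 21.8 normalized counts in C/C. Fitm2, needed for budding of lipid droplets, rose by 0.67 (adjusted p = 0.0497). Of 8 transcription factors of fat storage, Klf15 fell by 2.00 (SE 0.51, adjusted p = 0.0109), also at low levels. Its means were 19.9 normalized counts in C/C and 70.7 in T/T. The other factors did not pass, with Pparg at 0.39 (adjusted p = 0.292) and Cebpa at -0.57 (adjusted p = 0.183). Of the 10 pathway genes called, the libraries of 4 (Klf15, Aqp7, Acsl5 and Slc27a4) did not overlap between genotypes. The 26.1% of all genes tested that did not overlap counts called and uncalled genes alike, so the 2 shares are not of like sets.

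Without mouse 593, 5 of 42 tested pathway genes were called lower, beside 15.8% of all genes, and 4 higher, beside 13.8%, and 6 genes were called with and without it. Angptl4, Gpat4, Mogat1 and Mogat2 were no longer called, while Lmf1, which is needed for LPL to fold, was called higher (0.51, adjusted p = 0.0471), Pparg higher (0.68, adjusted p = 0.0371) and Acsl4 lower (-1.10, adjusted p = 0.0166). Klf15 was at -1.39 (adjusted p = 0.0110) and Aqp7 at -1.28 (adjusted p = 0.00454).

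Single markers of several cell types were called in WAT, and their part in the values of the 10 genes was not tested. Within the endothelial, adipose stromal and macrophage lists the calls went both ways, with median log2 fold changes of -0.29, -0.042 and 0.010. Each count below stands beside the 17.0% of all genes tested that were called lower and the 15.1% called higher. Of 9 adipocyte markers, 5 were called lower in C/C (Adipoq, Plin1, Lep, Retn and Lipe) and none higher, with a median log2 fold change of -1.11, and 4 were lower without mouse 593. The summed adipocyte level was mostly 1 marker, Cfd, which was not called and made up 74.8 to 83.7% of it in C/C and 46.3 to 64.2% in T/T. With Cfd the sum was 158451 to 225027 in the 3 C/C libraries other than mouse 593, while the 8 other markers summed to 25759 to 49260.4 there, 16922 in mouse 593 and 54646 to 71756 in T/T. Of 8 endothelial markers, 3 were lower (Pecam1, Kdr and Esam) and 2 higher (Tek and Cldn5), with sums of 2786 to 4253 in C/C and 3735 to 5436 in T/T. Adipose stromal markers (1 of 7 lower, 2 higher) summed to 7813 to 14326 in C/C and 9522 to 12512 in T/T, and macrophage markers (3 of 8 lower, 1 higher) to 2940.3 to 6143 and 2827 to 4578. Of 3 tested hepatocyte markers, 2 were lower, with sums of 211 to 659.8 in C/C and 833 to 2891 in T/T. The 9 ovary markers found in WAT had 6 tested and 1 called higher (Gdf9). Mesothelial markers, none of 7 called, summed to 475 to 1322 in C/C and 264 to 1387 in T/T, and lymphocyte markers, with 1 tested and not called, to 42.3 to 91.4 and 18.2 to 49.1. No marker found in a table was at 0 in every library of that tissue.

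Upstream sequence was looked at for the members that RefSeq's promoter table (build GRCm38.p6) holds, which are Cd36, Slc27a1, Acsl1, Gpam and Agpat2, with 9 windows of 250 bases before a start site. Matches to 3 motifs on both strands are given: AGGTCA, the half-site bound by nuclear receptors such as PPARγ with RXR; AGGTCANAGGTCA, the same half-site repeated 1 base apart, in which AGGTCA is contained; and CACGTG, the E-box bound by several basic helix-loop-helix factors. Of 32851 windows in the table, 14.0%, 0.0335% and 6.02% held them. In the 9 windows, 3 matches to these motifs were found, none of them to the repeated half-site, and each is shown with its surroundings in 30 bases, 5′ to 3′ on the strand of the gene, with the match in capitals. These are all the matches to the 3 motifs in the 9 windows, and none was picked by a genotype result. The windows of Acsl1 and Agpat2 held no match. Coordinates are those of GRCm38, not of GRCm39, the build that the submitters' processing notes name.
Slc27a1, E-box, chr8:71570380-71570409, plus strand: ggggtgtctagcCACGTGgtcagtgcttgg
Gpam, half-site, chr19:55099656-55099685, minus strand: ctaggctagctgAGGTCAcgcaagggagat
Cd36, half-site, chr5:17836107-17836136, minus strand: ctctgcactttaTGACCTgagattttcagg
Slc27a1 and Gpam thus shared no match to any of the 3 motifs in these windows. A match is a description of the letters and no evidence of binding.

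In the liver, levels of Lpl, Fabp4, Slc27a1 and Cd36 were far below those in WAT. Because the 2 tables were normalized separately, RPM values (recovered reads scaled to the same library total) are given here, with no test across tissues. In T/T mice the median RPM of Fabp4 was 4445 in WAT and 6.75 in liver, a ratio of 659, and for Lpl 5832 and 24.5, a ratio of 238. Slc27a1 (264 and 2.03) and Cd36 (1359 and 19.1) were also mainly found in WAT. Gpihbp1 and most enzymes of activation and assembly differed less, with 156 and 37.6 for Gpihbp1, 1301 and 476 for Acsl1, 913 and 275 for Gpam, 1207 and 290 for Agpat2, and 1919 and 572 for Dgat2. Dgat1 (288 and 27.4) lay between. For 8 of the 10 genes every WAT library was above every liver library, the exceptions being Agpat2 and Dgat2, whose lowest C/C WAT libraries (328 and 499 RPM) fell within the range of the livers. The share of all genes that differed in this way was not counted, so that this count is a description only.

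The liver comparisons, and those between tissues, rest on genotype labels that were followed as given and could not be checked from the data: by the labels, the first 5 columns of the liver table hold 2 C/C and 3 T/T mice, whereas the 4 labelled ones among the first 5 of the WAT table are all C/C. In liver none of the 10 genes was called in either direction, where 0% of the 11710 genes tested were called (limma, with 231 at an unadjusted p under 0.05, and edgeR and DESeq2 on the recovered reads also called 0 genes, with 249 and 225 at an unadjusted p under 0.05). The libraries of the genotypes overlapped for all 10, and did not for 0.248% of all genes tested. The median log2 fold change of the 10 genes was 0.0032, beside 0.0072 over all genes tested. No member reached an unadjusted p under 0.05 in limma, where 1.97% of all genes did, and the smallest exact permutation p was 0.119, for Dgat1.

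Lpl in liver was at 207 (mouse 590), 182 (mouse 591), 161 (mouse 592), 141 (mouse 638) and 129 (mouse 639) in C/C. T/T livers had 174 (mouse 607), 253 (mouse 608), 133 (mouse 657), 145 (mouse 658) and 793 (mouse 659). The library of mouse 659 was above all the others, which spanned one range in both genotypes. The log2 fold change was -0.52 with all livers (95% interval -1.58 to 0.54) and -0.077 without mouse 659. Gpihbp1 was steadier, with 226 (mouse 590), 205 (mouse 591), 285 (mouse 592), 276 (mouse 638) and 295 (mouse 639) in C/C and 264 (mouse 607), 245 (mouse 608), 256 (mouse 657), 220 (mouse 658) and 263 (mouse 659) in T/T. Its log2 fold change was 0.034 (95% interval -0.24 to 0.30).

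Of the uptake genes, Cd36 was at 102 (mouse 590), 112 (mouse 591), 98.5 (mouse 592), 131 (mouse 638) and 84.5 (mouse 639) in C/C livers and 136 (mouse 607), 103 (mouse 608), 98.8 (mouse 657), 156 (mouse 658) and 143 (mouse 659) in T/T livers, a difference of -0.26 (95% interval -0.60 to 0.082). Fabp4 was at 28.9 (mouse 590), 89.6 (mouse 591), 41.9 (mouse 592), 64.1 (mouse 638) and 61.2 (mouse 639) in C/C livers and at 38.7 (mouse 607), 69.8 (mouse 608), 30.5 (mouse 657), 46.1 (mouse 658) and 66.8 (mouse 659) in T/T livers. Neither genotype was set apart in Cd36 or Fabp4. The 95% interval of Fabp4 in liver was -0.47 to 0.76 and overlapped its interval in WAT (-1.84 to -0.35). The direct comparison between tissues, given below, did not call Fabp4 different. Slc27a1 was near the limit of what was tested, with 12.6 (mouse 590), 15.4 (mouse 591), 13.7 (mouse 592), 11.4 (mouse 638) and 8.45 (mouse 639) in C/C and 9.43 (mouse 607), 22.0 (mouse 608), 15.9 (mouse 657), 7.69 (mouse 658) and 13.0 (mouse 659) in T/T.

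The enzyme Acsl1 was at 2858 (mouse 590), 3140.4 (mouse 591), 3166 (mouse 592), 3363 (mouse 638) and 2987 (mouse 639) in C/C livers, inside the range of T/T livers, at 2605 (mouse 607), 4127 (mouse 608), 3974 (mouse 657), 3250.3 (mouse 658) and 2336 (mouse 659). The T/T livers thus spread more, and the difference was -0.037 (95% interval -0.36 to 0.28). Gpam was high in 1 liver of each genotype. C/C values were 1791 (mouse 590), 1520.4 (mouse 591), 1728 (mouse 592), 1726 (mouse 638) and 3907 (mouse 639), and T/T values were 4567 (mouse 607), 1275 (mouse 608), 1373 (mouse 657), 1882 (mouse 658) and 2187 (mouse 659). The log2 fold change of Gpam was -0.010 (95% interval -0.88 to 0.86), an interval wider than that of any other member but Lpl.

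Agpat2 was at 1718 (mouse 590), 1496 (mouse 591), 2012 (mouse 592), 2611 (mouse 638) and 2267 (mouse 639) in C/C livers and at 2057 (mouse 607), 1721 (mouse 608), 1772 (mouse 657), 2051 (mouse 658) and 1955 (mouse 659) in T/T livers, a difference of 0.057 (95% interval -0.24 to 0.36). Dgat1 was at 209 (mouse 590), 164 (mouse 591), 212 (mouse 592), 219 (mouse 638) and 227 (mouse 639) in C/C and at 187 (mouse 607), 157 (mouse 608), 187 (mouse 657), 199 (mouse 658) and 180.0 (mouse 659) in T/T. All C/C livers but that of mouse 591 were above all T/T livers in Dgat1, with a log2 fold change of 0.18 (95% interval -0.088 to 0.44). Dgat2 was at 3485 (mouse 590), 3102 (mouse 591), 3634 (mouse 592), 4488 (mouse 638) and 5422 (mouse 639) in C/C and at 5558 (mouse 607), 3454 (mouse 608), 4177 (mouse 657), 3908 (mouse 658) and 2877 (mouse 659) in T/T, a difference of 0.017 (95% interval -0.36 to 0.39), and the genotypes covered the same range. Of the other pathway genes, 45 were tested in liver and none was called, with a median of -0.012.

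**Figure D4:**
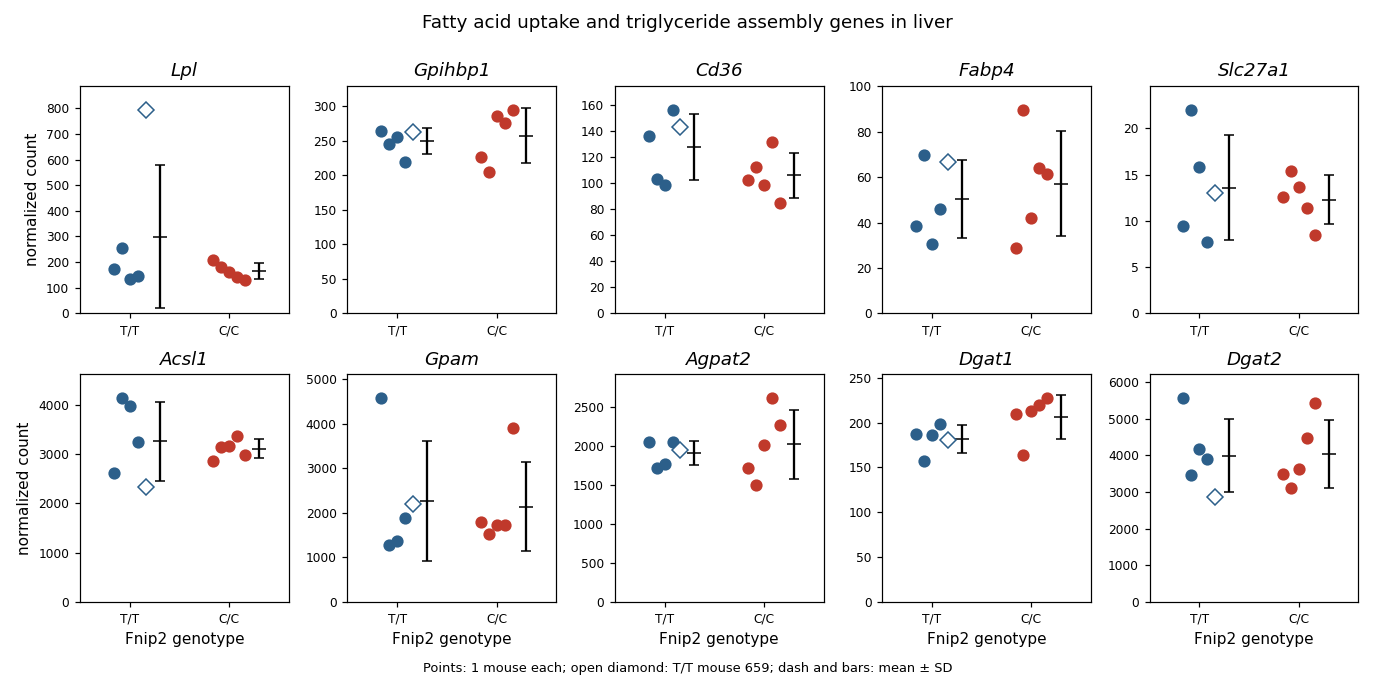
Normalized count of each of the 10 genes (y axis, from 0, a scale of its own in each panel) in liver by Fnip2 genotype (x axis). Each point is 1 mouse, the open diamond is T/T mouse 659, and the dash with bars is the mean ± SD of 5 libraries. Every panel overlaps between genotypes, Lpl of mouse 659 (793) stands apart, and Gpam is high in 1 C/C mouse (3907) and 1 T/T mouse (4567).

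The genotype effect of the 10 genes was then compared between tissues. None of the 10 was called different by limma between WAT and liver, while 29.2% of the 10404 genes tested were. By unadjusted p under 0.05, 2 of the 10 were lower in WAT relative to liver and none higher, where 40.4% of all genes passed in either direction. The difference was -1.24 on the log2 scale for Fabp4 (SE 0.48, adjusted p = 0.0572) and -1.03 for Dgat2 (SE 0.43, adjusted p = 0.0757). Fabp4 passed with a pseudocount of 10 (adjusted p = 0.0396). For Lpl the difference was -0.55 (95% interval -1.77 to 0.66), so that the fall in WAT was not shown to differ from liver. This value depended on the liver of T/T mouse 659, which was high in Lpl. With that library left out, the difference between tissues was -0.996 (adjusted p = 0.0772 in limma), which was also not called. The liver difference of Lpl was then -0.077. Without mouse 593, Acsl1 (0.91, adjusted p = 0.0203) and Slc27a1 (0.99, adjusted p = 0.0389) were called higher in C/C in WAT relative to liver, where 10.5% of all genes were. In that fit 0 of the 10 were called lower, beside 1792 of the 10394 genes tested. The liver differences of Acsl1 and Slc27a1 themselves were -0.037 and -0.072. Slc27a1 in liver was near the limit of what was tested.

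Over the 9 WAT libraries, the genes other than these 10 whose log2 values followed the mean standardized level of the 10 genes most closely were Atp5l (Pearson r = 0.949), Adamts9 (0.923) and Upb1 (0.923). With the mean of each genotype removed, Cebpa (0.975), Atp5l (0.960) and Aatk (0.952) came first. These are descriptions over 9 libraries that share the low values of mouse 593. Within genotypes the correlations between pairs of the 10 genes were uneven. Fabp4 and Slc27a1 varied together (r = 0.948), as did Slc27a1 and Acsl1 (0.866) and Gpihbp1 and Cd36 (0.830). Gpam varied with Dgat2 (0.795) and Agpat2 (0.771). Dgat1 varied with Slc27a1 (0.846), Acsl1 (0.821) and Dgat2 (0.671). Fabp4 and Gpam had the lowest value of all pairs (-0.391). No such correlations for other sets of genes are given here.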

How the data were processed

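Visceral WAT and liver of female Fnip2C/C and Fnip2T/T mice were sequenced as QuantSeq 3′ libraries (76 sequencing run samples, 4 per mouse), and each tissue has 1 deposited table whose signal values are normalized counts, made by the authors from gene read counts with a size factor for each library. The submitters' processing notes name FastQC 0.11.9, HISAT2, SAMtools 1.12, HTSeq, DESeq2 and GRCm39, and the strand setting of counting is not given in the sources used here. Division was undone, since 100% of values were whole multiples of a step within a tolerance of 1e-06. Reads are not independent molecules. Groups were taken from labels, 1 unlabelled WAT column was left out, and the 5 leading columns of the liver table mix genotypes by the labels, which were followed.

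Genes averaging 10 or more normalized counts were tested as log2(value + 1), and limma 3.58.1 in R 4.3.3 (trend and robust options) tested C/C minus T/T in each tissue and the difference between tissues, with Benjamini-Hochberg adjustment over all genes and a threshold of 0.05. Fold changes are on the log2(value + 1) scale. For each member an exact permutation test, two-sided, was added (smallest p 0.00794). Alternatives were pseudocounts of 0.5 and 10, no filter or a minimum of 50, other scalings, library weights, mouse numbers (under 610 or over 630) as a covariate, edgeR 4.0.16 and DESeq2 1.42.0 on recovered reads, and each library left out. The parity term of liver label numbers was chosen after seeing the data. Tests were tried on simulated data. The members and lists were chosen with earlier results of these data known. By rule, the text names the 10 genes, pathway genes called in WAT and the 3 genes most like the members by each measure, and other genes were named after their values were seen. Of the mice, 6 gave both tissues, and in the fit of both tissues the consensus correlation of a mouse's libraries was -0.114. One further promoter motif was searched, and its result is not reported here.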

Additional observations from a re-analysis of the deposited data

Results flagged for a closer look

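Of 40 groups of libraries (10 genes in 4 groups), 5 held 1 library far from the others, and chance alone flags about 1 in 20 groups. Gpam was low in WAT of C/C mouse 638, at 3787 normalized counts against 6408 to 6934 in the 3 other C/C libraries. In liver Gpam was high in C/C mouse 639, at 3907 against 1520.4 to 1791, and in T/T mouse 607, at 4567 against 1275 to 2187. Lpl was high in the liver of T/T mouse 659, at 793 against 133 to 253. Dgat1 was low in the liver of C/C mouse 591, at 164 against 209 to 227. None of the 10 genes passed the test of a different genotype effect in WAT and liver.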

How the results depend on the processing

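In WAT the count of genes called over all genes stayed within 1.5 times of 4111, while the calls among the 10 genes were less stable. Of 2 called lower, library weights left 1, a minimum mean of 50, both other scalings, the mouse number term and DESeq2 each gave 3 (Dgat2 added), and leaving out each mouse gave 0 to 4; of 0 called higher, library weights gave 2, DESeq2 1, and leaving out each mouse 0 to 2. Cd36 turned to -0.029 with scaling to the same total and -0.095 with quantile normalization, which also turned Dgat1 to -0.022, and Cd36 lay between -0.10 and 0.31 with each mouse left out. Over the other settings Lpl kept its call with the exception of library weights (-0.69, adjusted p = 0.0869), and Fabp4 kept it in all 10.

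In liver, values near 0 changed sign. Fabp4 was -0.020 and Gpam 0.035 with library weights, Gpam 0.0090 with the term for mouse numbers, Agpat2 -0.013 and Dgat2 -0.0084 with quantile normalization, and Slc27a1 0.036 and Dgat2 -0.051 with the parity term. Leaving out each mouse gave -0.018 to 0.11 for Gpihbp1, -0.037 to 0.36 for Fabp4, -0.24 to 0.11 for Slc27a1, -0.15 to 0.057 for Acsl1, -0.25 to 0.29 for Gpam, -0.043 to 0.16 for Agpat2 and -0.098 to 0.14 for Dgat2. Slc27a1 fell below the minimum mean of 50 in liver and has no value there.

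For the difference between tissues, a pseudocount of 10 and a minimum mean of 50 each gave 1 gene called lower, and leaving out each library gave 0 to 3 lower and 0 to 2 higher. Dgat1 lay between -0.16 and 0.24. With mouse as a replicate block, 2753 genes were called, Fabp4 was at -1.26 (adjusted p = 0.0601) and Dgat2 at -1.05 (adjusted p = 0.0818), and the block changed no call among the 10. No block was possible within a tissue, since the genotypes share no mouse. The cause of these changes was not tested.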
